A study of Mus musculus with 4 samples.

Results

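The expression of 50 cell cycle genes, out of 31053 genes in the count tables, was followed across the cell types of mouse inguinal white adipose tissue (IWAT) that carry the ChAT-eGFP reporter, at thermoneutrality (30 °C) and after acute cold (4 °C). The genes are a named list of replication and division genes, and all 50 were found by symbol. By role they comprise 9 genes of origin licensing and the replicative helicase, 5 of nucleotide supply, 4 grouped as fork genes and 3 of the G1/S switch. The others are 3 replication-dependent histone genes, 12 of the mitotic kinases, cyclins and protein degradation, 11 of the spindle, kinetochore and cytokinesis, and 3 of chromatin. The fork genes are Pcna and Pclaf of the replication fork, Uhrf1 of DNA methylation upkeep, and Slbp, which binds histone mRNA. Live eGFP+ cells of the stromal vascular fraction were sorted and profiled by droplet single-cell RNA sequencing from the 3′ end, in 2 libraries per temperature, each from 4 pooled mice. All mice were males of the ChATBAC-eGFP genotype and entered 30 °C housing at 5 weeks of age for 3 weeks. The thermoneutral mice then stayed at 30 °C for another 4 h, whereas the cold mice spent 4 h at 4 °C after 24 h at room temperature, a step that the thermoneutral mice did not have. The reporter is a transgene on a bacterial artificial chromosome, so the sort selected cells in which Chat regulatory sequence drove eGFP, and a pooled library gives no value for a single mouse. Every cell type below is therefore an eGFP+ subset of that type. The study reports that cold raised the share of eGFP+ cells and the level of Chat. Which cells of a type passed the sort may thus differ between the temperatures, and this was not tested.

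A dividing cell first loads the Mcm2-7 helicase onto replication origins with the help of Cdc6, then passes into S phase when cyclin E and the E2F factors switch on the genes of DNA synthesis. During S phase the core and linker histones that package the new DNA are made from replication-dependent histone genes, whose mRNAs are built up as replication starts and destroyed quickly when it stops. The G2/M genes, among them Cdk1, the B cyclins, Top2a and Mki67, then rise ahead of mitosis, largely under the MuvB complex and its partners, which act at CHR and CCAAT elements of their promoters. In fat, resident T cells, B cells, macrophages and type 2 innate lymphoid cells (ILC2) can each divide in place. Where the cells sorted here had divided was not measured, and the study's methods do not say whether lymph nodes were removed from the tissue.

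The promoter letters of the genes on which the results turn are printed first, as a RefSeq window of 300 bases, 250 before and 50 after the annotated start, on GRCm38.p6. Windows were found for 43 of the 50 genes, 3 of them under a newer symbol (H2ac24 for Hist1h2ap, H2ac8 for Hist1h2ae and H1f5 for Hist1h1b). The 3 histone genes are shown because all 3 were called lower in both αβ T cells and macrophages, Top2a as the marker that defines a cycling cell here, Cdk1 as a G2/M gene and Mcm5 as a helicase gene. Capitals mark the CHR letters TTTGAA, the CCAAT box CCAAT and 4 forms of the E2F site, TTTCCCGC, TTTGGCGC, TTTCGCGC and TTTGGCGG, each searched on both strands, so that the CHR on the other strand reads TTCAAA and the CCAAT box reads ATTGG. The 2 E2F matches in Mcm5 overlap each other. Hist1h2ap is at chr13:21833426-21833725 (minus strand), Hist1h2ae at chr13:23571171-23571470 (minus), Hist1h1b at chr13:21780576-21780875 (minus), Top2a at chr11:99024140-99024439 (minus), Cdk1 at chr10:69352863-69353162 (minus) and Mcm5 at chr8:75109259-75109558 (plus).
Hist1h2ap: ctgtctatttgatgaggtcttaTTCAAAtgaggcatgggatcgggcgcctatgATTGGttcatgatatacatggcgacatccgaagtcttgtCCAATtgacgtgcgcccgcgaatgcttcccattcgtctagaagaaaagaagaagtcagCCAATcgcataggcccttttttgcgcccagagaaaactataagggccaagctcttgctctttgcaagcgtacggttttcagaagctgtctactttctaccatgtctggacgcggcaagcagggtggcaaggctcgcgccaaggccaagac
Hist1h2ae: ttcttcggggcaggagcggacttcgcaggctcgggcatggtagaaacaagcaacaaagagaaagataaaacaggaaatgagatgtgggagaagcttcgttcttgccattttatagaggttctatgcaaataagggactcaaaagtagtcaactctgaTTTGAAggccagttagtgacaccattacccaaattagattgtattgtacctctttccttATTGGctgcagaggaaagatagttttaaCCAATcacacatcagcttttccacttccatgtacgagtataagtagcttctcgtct
Hist1h1b: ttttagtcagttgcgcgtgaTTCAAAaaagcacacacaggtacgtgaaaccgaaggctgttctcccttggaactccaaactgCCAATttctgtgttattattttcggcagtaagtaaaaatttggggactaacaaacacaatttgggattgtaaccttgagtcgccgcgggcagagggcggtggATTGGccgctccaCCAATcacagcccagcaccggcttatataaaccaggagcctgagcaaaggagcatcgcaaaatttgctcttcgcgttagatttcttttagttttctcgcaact
Top2a: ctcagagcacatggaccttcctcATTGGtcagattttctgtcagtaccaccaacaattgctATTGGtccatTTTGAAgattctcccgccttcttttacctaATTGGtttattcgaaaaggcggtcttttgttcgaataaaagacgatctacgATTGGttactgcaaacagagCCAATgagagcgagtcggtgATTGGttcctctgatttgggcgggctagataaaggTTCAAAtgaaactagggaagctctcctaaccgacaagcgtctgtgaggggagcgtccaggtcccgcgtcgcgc
Cdk1: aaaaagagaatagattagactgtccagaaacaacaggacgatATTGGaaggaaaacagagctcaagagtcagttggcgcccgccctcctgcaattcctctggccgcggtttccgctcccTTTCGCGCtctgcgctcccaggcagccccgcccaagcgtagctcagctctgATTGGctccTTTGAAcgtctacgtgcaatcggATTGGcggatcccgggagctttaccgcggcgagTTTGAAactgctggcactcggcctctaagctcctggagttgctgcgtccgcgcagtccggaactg
Mcm5: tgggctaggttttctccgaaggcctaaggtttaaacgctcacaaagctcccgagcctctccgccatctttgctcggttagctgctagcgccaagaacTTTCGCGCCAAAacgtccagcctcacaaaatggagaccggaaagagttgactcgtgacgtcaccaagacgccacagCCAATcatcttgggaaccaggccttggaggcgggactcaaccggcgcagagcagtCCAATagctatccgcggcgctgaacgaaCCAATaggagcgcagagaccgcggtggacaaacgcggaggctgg

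The CHR letters were in the windows of 19 of the 43 genes (44.2%), against 20.2% of all 27025 genes with a window, and the CCAAT box was in 34 (79.1%), against 41.1%. By role the CHR was in 3 of 3 histone genes, 3 of 3 chromatin genes and 7 of 10 genes of the mitotic kinases and cyclins. None of the 5 nucleotide supply genes, the 4 fork genes or the 2 G1/S genes with a window held it. The E2F letters showed another split, with 5 of 7 licensing and helicase genes and 2 of 4 fork genes, and they were in 8 of the 43 windows (18.6%) against 2.7% of all genes. A match describes these letters in this window and not a bound site.

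After the cell filters of the study's methods, 5191 and 5388 cells remained at 30 °C and 5329 and 5345 at 4 °C, with 53423899 to 54933486 UMIs (unique molecular identifiers, each counted as 1 captured mRNA) per library. Pairs of libraries shared between 10 and 18 cell barcodes. Cells were assigned to types by marker genes that are none of the 50. The alpha-beta (αβ) T cell gate took 1443 and 1527 cells at 30 °C and 1751 and 1708 at 4 °C, and the gamma-delta (γδ) T cell gate took 159 and 171 at 30 °C but only 53 and 25 at 4 °C. The other gates, in the same order, were germinal centre (GC) B cells with 86, 337, 148 and 281 cells, other B cells with 2259, 2152, 1836 and 2327, macrophages with 185, 201, 484 and 182, and ILC2 with 228, 239, 321 and 224. These names stand for marker gates. Levels are given as CPM, the UMIs of a gene relative to all UMIs summed over a cell type in a library and scaled by TMM, and always in the order of the libraries 1 and 2 of a temperature. The defining markers were as their names say, with γδ receptor constant genes at 3573 to 4346 CPM in γδ T cells against 4.72 to 15.6 CPM in αβ T cells. The γδ gate also held αβ receptor constant transcripts at 1269 to 1569 CPM in its 4 libraries, against 4025 to 4293 CPM in αβ T cells.

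Cycling cells were called by 1 or more UMIs of Top2a, the topoisomerase that untangles DNA before mitosis. Of the cells so called, 48.0% to 59.9% of αβ T cells but 25.8% to 34.9% of other B cells also held an Mki67 UMI, by library. "Cycling" below therefore means a Top2a UMI only, and the cells it names are not alike across types. With the study's cell filters GC B cells had the highest share of cycling cells, with 57.0% and 59.6% at 30 °C and 62.2% and 54.4% at 4 °C. Next came γδ T cells at 30 °C with 47.8% and 44.4%, ILC2 with 28.9% to 33.3% and αβ T cells with 21.7% to 24.5%. The lead of GC B cells over γδ T cells depended on the filters. Without the upper limit of 5000 genes per cell, 62 of 100 and 256 of 395 GC B cells were cycling at 30 °C, against 113 of 196 and 175 of 270 γδ T cells. Macrophages had 9.34% to 16.4% and other B cells 9.57% to 11.8%, so these neighbours in the order overlapped. This order uses shares that were not brought to equal depth. In cells without a Top2a UMI, and without the limit, GC B cells had a median of 2620 genes and γδ T cells 2271. The medians were 2141 in ILC2, 1994.5 in αβ T cells, 2811 in macrophages and 1962 in other B cells. Stromal cells had 3.33% and 3.23% at 30 °C and 9.09% and 3.23% at 4 °C, from only 30 to 44 cells each. These cells are too few to set a background rate from free RNA, which was not measured. Their median depth was 4032 and 3627 UMIs at 30 °C and 11463 and 12352 at 4 °C, against 5827 to 6744 in αβ T cells.

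**Figure D1:**
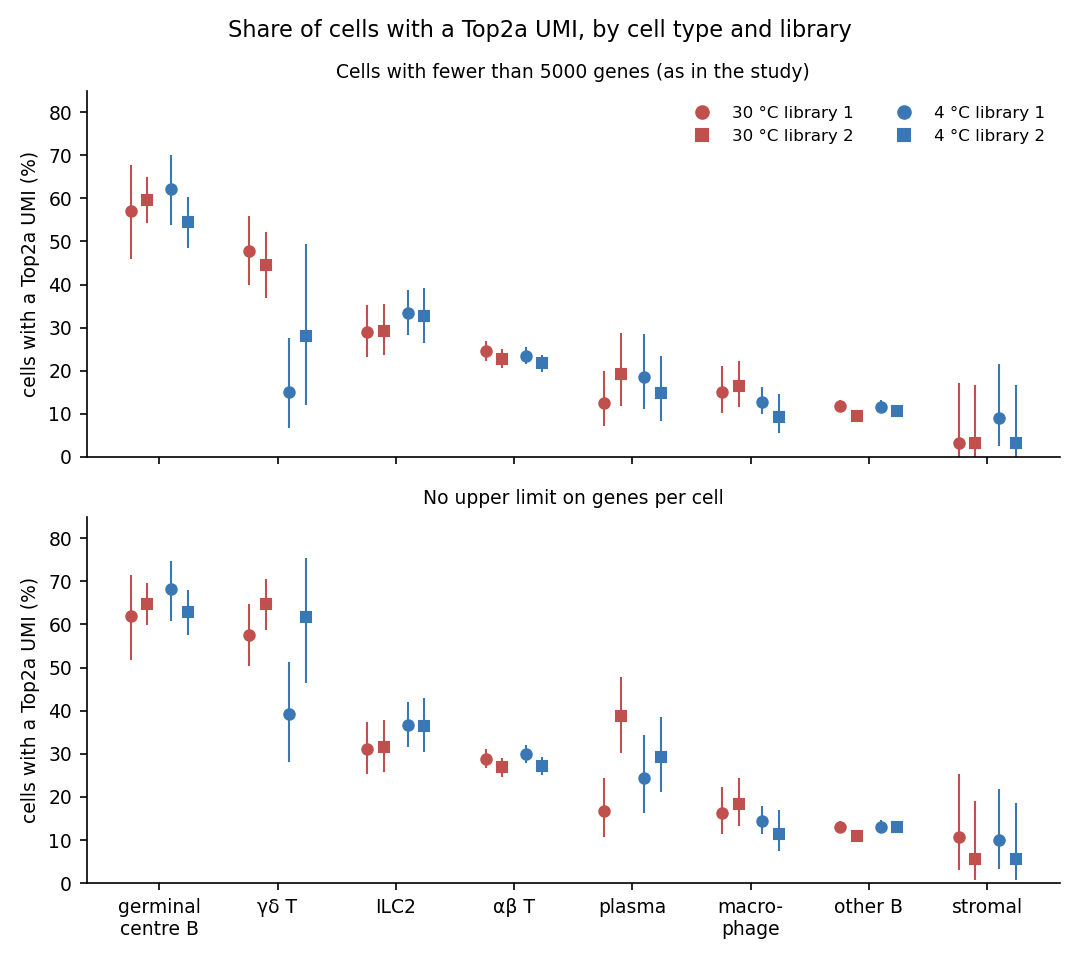
Share of cells with 1 or more Top2a UMIs, in percent, by cell type and library, with 95% exact (Clopper-Pearson) binomial intervals as error bars that cover counting error only. With the upper limit on genes per cell, cold γδ T cells sit at 15.1% and 28.0%, under 47.8% and 44.4% at 30 °C. The αβ T cells of both temperatures then lie between 21.7% and 24.5%. Without the limit, γδ T cells averaged 61.2% at 30 °C and 50.4% at 4 °C, and αβ T cells 27.9% and 28.6%. The temperature groups of both kinds overlapped without it.

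All 50 genes were higher in GC B cells than in other B cells of the same library, where 63.4% of all genes tested differed, 31.6% higher and 31.8% lower (edgeR with the library as a block, Benjamini-Hochberg adjusted p under the threshold of 0.05 for each gene). The median difference was 2.90 on the log2 scale, and 2.18 without an upper limit on genes per cell, where again all 50 were higher, against 67.8% differing, 32.2% higher and 35.6% lower. Top2a averaged 432 ± 45.7 CPM in GC B cells and 55.9 ± 8.54 CPM in other B cells (SD, n = 4 libraries). Mitotic kinases and cyclins had a median difference of 3.20, whereas origin licensing genes had 2.16. Cdc20, the activator of the anaphase-promoting complex, differed by 3.55 and Pcna, the sliding clamp of the fork, by 1.76.

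Between the T cell kinds, 25 of the 50 genes were higher in γδ than in αβ T cells and none lower, where 29.1% of all genes tested differed, 14% higher and 15.1% lower. Cdc6, the origin loading factor, averaged 20.4 ± 5.92 CPM in γδ and 10.7 ± 1.58 CPM in αβ T cells and differed by 1.06 ± 0.20 (log2 ± SE). Libraries of both temperatures entered this comparison. Summed over the 50 genes, the level with the limit was 18183 and 19567 CPM in γδ against 10971 and 10017 in αβ T cells at 30 °C, but 6356 and 6931 against 8398 and 6719 at 4 °C, where the kinds overlapped. The count was 8 or 9 without either thermoneutral library and 48 without the first cold library. Without the upper limit of 5000 genes per cell, 43 were higher, against a background of 41.5% differing, 19.5% higher and 22% lower. Top2a differed by 0.49 with the limit and by 0.54 without it (edgeR adjusted p = 0.0361 and 0.00677).

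Over 28 sums of 7 cell types by 4 libraries, the genes outside the list with a log2 level most like that of Top2a were Smc2 (r = 0.986), Prc1 (0.986), Lmnb1 (0.983), Spc25 (0.982) and Fbxo5 (0.982), among 9456 genes ranked by Pearson correlation. Smc2 is a condensin subunit and Prc1 bundles the microtubules of the central spindle. The other 49 genes had a median correlation with Top2a of 0.947, against 0.443 over all genes ranked. The points share libraries and depth, so these values only describe which genes move alike.

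The upper limit of 5000 genes per cell, which the study's methods set, bore directly on the cycling cells. Without it 22738 cells remained, 1485 of them over the limit (6.53%), and 1402 of these 1485 held a Top2a UMI (94.4%). The limit removed 25.2% of all cycling cells but 0.483% of the others. In αβ T cells it removed 19.9% and 19.6% of the cycling cells at 30 °C and 28.1% and 25.7% at 4 °C. In γδ T cells it removed 32.7% and 56.6% at 30 °C and 72.4% and 75.9% at 4 °C. The study set this limit to take out doublets, droplets that hold more than 1 cell. Scrublet, a doublet caller, was set to mark the 5% of cells with the highest scores in each library. Of the cells over the limit 11.6% were so marked, and this preset share cannot tell how many of them were doublets. The main counts of called genes below are therefore given with the limit and without it.

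In αβ T cells the replication-dependent histone genes fell after cold, and most of the other cycle genes did not pass the test. Hist1h2ap, which encodes a core histone H2A, had 1545 and 1445 CPM at 30 °C and 665 and 642 at 4 °C. Hist1h2ae, a further H2A gene, had 341 and 299 CPM at 30 °C against 151 and 161 at 4 °C, and Hist1h1b, which encodes a linker histone H1, had 207 and 165 against 122 and 98. In all 3 genes both cold libraries were below both thermoneutral libraries. They fell by 1.19 ± 0.05, 1.04 ± 0.07 and 0.76 ± 0.12 on the log2 scale (edgeR adjusted p = 1.95e-05, 0.000235 and 0.0124). Without the limit on genes per cell they fell by 0.90, 0.62 and 0.44 on the log2 scale (edgeR adjusted p = 0.000201, 0.0161 and 0.0133). In sums over cells, fewer transcribing cells and less RNA per cell cannot be told apart. The γδ receptor constant genes in the αβ gate stood at 10.1 and 15.6 CPM at 30 °C and 4.72 and 6.15 at 4 °C, and their part in these falls was not tested.

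Of the 50 genes, 8 were lower and none higher in cold αβ T cells, with the limit, where 4.92% of all 11737 genes tested changed, 2.2% higher and 2.72% lower. Beside the 3 histone genes these were Tk1 (thymidine kinase), Hmgb2 (a DNA-bending chromatin protein), Rrm1 (a ribonucleotide reductase subunit), Mcm7 and Mcm6. Their falls ran from 0.51 for Tk1, at 58.2 and 57.1 CPM against 44.1 and 36.9, to 0.26 for Mcm6 on the log2 scale. None of these 5 passed without the limit, where their differences lay between -0.23 and -0.03. The 3 histone genes remained called there, against a background of 3.58% changed, 1.35% higher and 2.23% lower. Without the first cold library 37 genes were lower, without the first or the second thermoneutral library 2 and 3. The median of the 50 log2 differences was -0.28 with the limit and 0.00 without it, beside medians within 0.06 of 0 over all genes tested.

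Top2a itself had 258 and 243 CPM at 30 °C and 246 and 210 at 4 °C in αβ T cells, ranges that overlapped (difference -0.14 ± 0.08, edgeR adjusted p = 0.345). Mki67, a coat protein of mitotic chromosomes, had 210 and 194 against 181 and 148 CPM (-0.30, edgeR adjusted p = 0.106). The remaining genes fixed for every comparison, Pcna, Mcm5, Ccne2, E2f1, Ccnb1, Cdc20 and Cdk1, had differences between -0.43 and -0.08, and none passed. Groups did not overlap, with cold lower, for 31 of the 50 genes, against 26.4% of all genes. By role, 3 of 3 histone genes, 2 of 5 nucleotide supply genes, 2 of 9 licensing genes and 1 of 3 chromatin genes were called, and 0 of the 12 mitotic kinase and cyclin genes and 0 of the 11 spindle genes (edgeR, where 26 of all 50 had an unadjusted p under 0.05 and DESeq2 called 7).

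**Figure D2:**
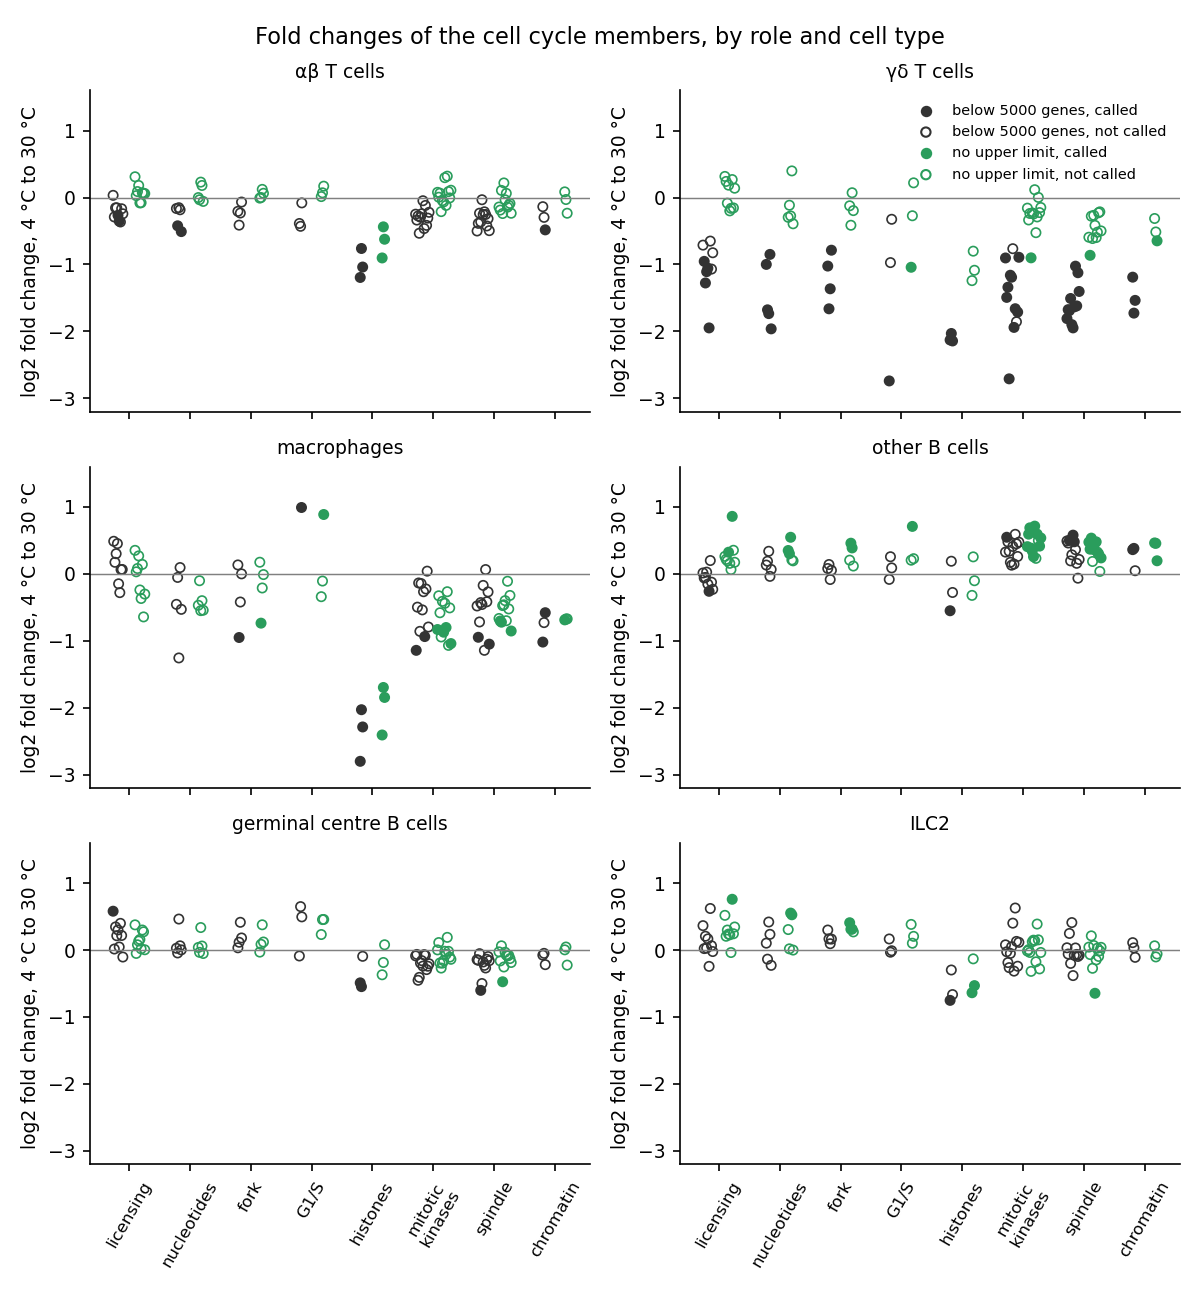
Difference of each of the 50 genes between 4 °C and 30 °C, on the log2 scale, by cell type and role, with the limit of 5000 genes per cell (dark) and without it (green). Filled points passed an edgeR adjusted p of 0.05. The histone genes lie furthest below zero in αβ T cells (Hist1h2ap at -1.19) and macrophages (Hist1h2ap at -2.80), and the γδ T cell genes move towards zero without the limit, from a median of -1.45 to -0.26.

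The γδ T cells at 4 °C held fewer cells and, under the limit, fewer cycling cells. Their share of cells with a Top2a UMI was 47.8% and 44.4% at 30 °C, and 15.1% (8 of 53 cells) and 28.0% (7 of 25) at 4 °C. The groups did not overlap, and the exact permutation test gave p = 0.333, the smallest value that 2 against 2 libraries allow. Without the limit the groups overlapped. The share was then 61.2 ± 5.06% at 30 °C and 50.4 ± 15.9% at 4 °C (SD, n = 2 libraries each, exact permutation p = 0.667). With a limit of 7000 genes, chosen after seeing the data, it was 59.6 ± 4.28% and 43.8 ± 14.2%, without overlap. After thinning to 4378 UMIs it was 36.9 ± 2.34% and 14.9 ± 5.72% with the limit and 50.8 ± 5.58% and 38.9 ± 11.0% without it, and neither pair overlapped.

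With the limit, 42 of the 50 genes were lower in cold γδ T cells, where 4.8% of all 7977 genes tested changed, 1.67% higher and 3.13% lower. Without it 4 of the 50 were lower, against 2.43% changed, 1.29% higher and 1.13% lower, and the median difference moved from -1.45 to -0.26. So 38 of the 42 calls were not made without the limit. The 4 that remained were Ccnb2 (a B-type cyclin), Ccne1 (cyclin E1), Nusap1 (a spindle microtubule protein) and Hmgb2. Ccnb2 had 193 and 214 CPM at 30 °C and 28.2 and 36.2 at 4 °C, from 15 and 10 UMIs in the cold libraries. It fell by 2.71 ± 0.22 on the log2 scale with the limit and by 0.90 without it (edgeR adjusted p = 2.85e-05 and 0.0381).

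Ccne1 in γδ T cells rested on 72 and 116 UMIs at 30 °C and 3 and 2 at 4 °C with the limit, too few for a firm size. It fell by 2.74 ± 0.48 on the log2 scale with the limit and by 1.04 without it (edgeR adjusted p = 0.00455 and 0.0488). Nusap1 fell by 1.67 with the limit and 0.86 without it, and Hmgb2 by 1.54 and 0.65 on the same scale. Of the 3 histone genes, Hist1h2ap had 2648 and 3373 CPM at 30 °C and 791 and 575 at 4 °C. With the limit the histone genes fell by 2.13, 2.14 and 2.03 on the log2 scale, and without it their differences were -1.24, -1.09 and -0.80 and did not pass (edgeR adjusted p = 0.0661, 0.0748 and 0.133).

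Other large falls with the limit in γδ T cells were those of Tk1, Cenpf (a kinetochore protein), Mcm7, Aurkb (the chromosomal passenger kinase), Cenpe (a kinetochore motor) and Birc5 (survivin), between 1.81 and 1.96 on the log2 scale. Without the limit their differences were between -0.59 and -0.16 and none passed. Top2a had 501 and 431 CPM at 30 °C against 205 and 202 at 4 °C with the limit and fell by 1.19, but differed by -0.31 without it. Mki67 fell by 1.73, Pcna by 1.02, Mcm5 by 1.11, Ccnb1 by 1.34, Cdc20 by 1.71 and Cdk1 by 0.90 on the log2 scale with the limit, and none of the 6 passed without it. Ccne2 and E2f1 did not pass in either, with differences of -0.97 and -0.32 with the limit.

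The difference of temperature effects between the T cell kinds followed the same split. With the limit, 38 of the 50 genes fell more in γδ than in αβ T cells, where 1.59% of all genes tested had such a difference, 0.433% higher and 1.16% lower. The count was 11 without the first cold library and 23 without the second thermoneutral library. Without the limit 0 of the 50 passed (edgeR, 11 at an unadjusted p under 0.05), and 0 of 12118 genes did. DESeq2 was not run on this difference.

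The share of γδ cells among T cells, measured separately, was 9.93% and 10.1% at 30 °C and 2.94% and 1.44% at 4 °C. Both cold libraries lay below both thermoneutral libraries, and the same held without the limit, at 11.3% and 14.3% against 3.72% and 2.49%. Among cycling T cells, 76 of 430 (17.7%) and 76 of 424 (17.9%) were γδ at 30 °C, against 8 of 420 (1.90%) and 7 of 378 (1.85%) at 4 °C. Without the limit these shares were 20.4% and 28.8% at 30 °C and 4.82% and 5.49% at 4 °C. All of these are shares of sorted eGFP+ cells, not of all T cells in the tissue. Chat was at 31.9 and 25.1 CPM at 30 °C and 56.5 and 65.1 at 4 °C in γδ T cells. In αβ T cells it was at 99.2 and 108.3 against 108.4 and 122.6 CPM. The part of the sort in the lower γδ share was not tested.

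The change in the share of cycling T cells was therefore split into a part from the mix of the 2 kinds and a part from within each kind, each weighted by the mean of both temperatures. T cells of both kinds were cycling in 25.9 ± 1.32% at 30 °C and 22.5 ± 1.04% at 4 °C with the limit (SD, n = 2 libraries each; exact permutation p = 0.333). The change was -3.36 percentage points. The split was made at the mean shares of each kind, where the parts sum to -3.30 points, with -5.03 to -1.69 over the 4 pairs of libraries. Of this sum, -0.835 points came from the mix, -0.973 from within αβ and -1.5 from within γδ T cells. The αβ part ran from -2.65 to 0.692 over the pairs of libraries and so took both signs, while the mix ran from -1.25 to -0.471 and the γδ part from -2.10 to -0.947.

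The change without the limit was -3.06 points and the parts summed to -2.91. The mix gave -2.69 points (-4.30 to -1.45 over library pairs), αβ T cells 0.638 (-1.59 to 2.81) and γδ T cells -0.861 (-2.32 to 0.280). Of the parts, only the mix kept 1 sign over all pairs in both of these settings. Other settings, with the limit, differed. With γδ cells called by Trdc and no Trac UMI, the mix ran from -0.583 to 0.0163 over pairs, and the γδ part from -1.14 to -0.0739. After thinning to 4378 UMIs every part kept 1 sign, with -3.18 from αβ (-4.50 to -1.86) and -0.575 from the mix (-0.945 to -0.220). For the summed UMIs of the 50 genes per T cell, the parts summed to -36.2 with the limit, of which -6.67 came from the mix, -18.2 from αβ and -11.3 from γδ T cells. Without the limit they summed to -33.9, of which the mix gave -41.9, αβ T cells 7.94 and γδ T cells -0.00566.

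**Figure D3:**
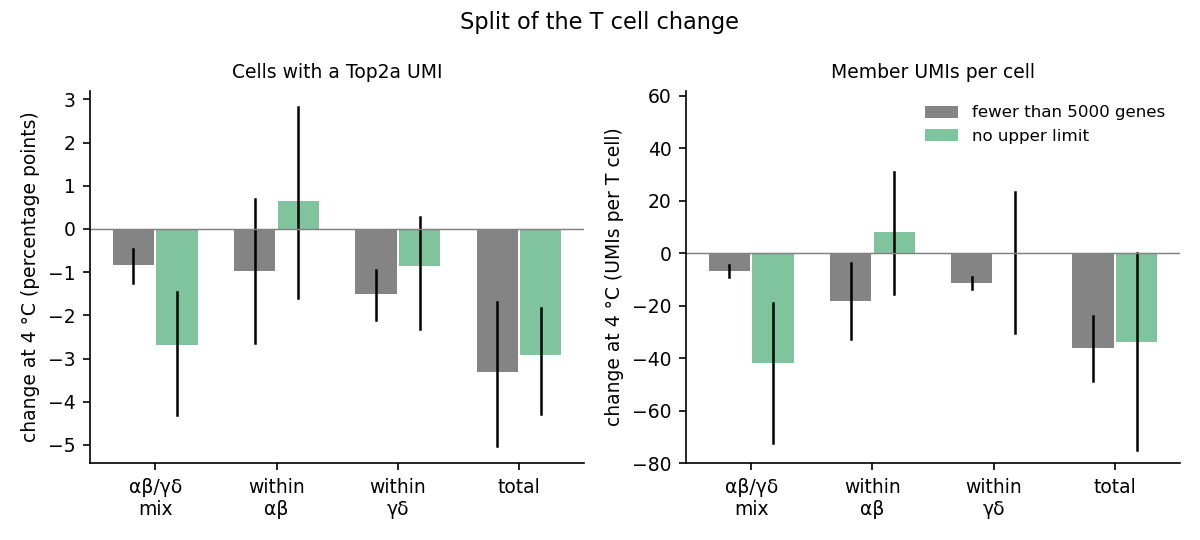
Split of the change from 30 °C to 4 °C in the share of cycling T cells (percentage points) and in UMIs of the 50 genes per T cell into the mix of γδ and αβ T cells and the change within each, with and without the limit of 5000 genes per cell. Bars are the split at the mean shares and black lines run from the lowest to the highest of the 4 library pairs. The mix grows from -0.835 to -2.69 points without the limit while the αβ part turns from -0.973 to 0.638.

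Within αβ T cells alone the share of cycling cells was 24.5% and 22.8% at 30 °C and 23.5% and 21.7% at 4 °C, with overlapping groups (23.7 ± 1.23% and 22.6 ± 1.28%, SD, n = 2 each; exact permutation p = 0.667). Without the limit it was 28.9% and 26.9% against 30.0% and 27.2%, and again the groups overlapped. After each cell was thinned to 4378 UMIs, the shares were 21.8 ± 0.364% and 18.3 ± 1.65% and did not overlap, and without the limit 26.1 ± 0.626% and 24.3 ± 2.45%, which overlapped.

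Inside the cycling αβ T cells the histone genes again fell and the other genes did not pass. Hist1h2ap had 3563 and 3426 CPM at 30 °C and 1626 and 1714 at 4 °C, a fall of 1.07 on the log2 scale (edgeR adjusted p = 6.86e-05). Hist1h2ae and Hist1h1b fell by 0.93 and 0.63. These 3 were the only calls among 49 genes tested, against 1.91% of all genes changed, 0.782% higher and 1.13% lower, and Top2a was not tested because it chose the cells. Without the limit the 3 fell by 0.96, 0.68 and 0.49, and Hmgb2 fell by 0.25 on the log2 scale (edgeR adjusted p = 0.0387), against 2.77% changed, 1.08% higher and 1.69% lower. Without the first cold library 24 genes were lower, with the limit. Pcna, Mcm5, Ccne2, E2f1, Ccnb1, Cdc20, Cdk1 and Mki67 had differences between -0.22 and 0.02 with the limit.

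In αβ T cells without a Top2a UMI, 8 of 48 genes tested were lower with the limit and 8 without it, against 5.03% changed (2.13% higher and 2.9% lower) and 4.98% (2.06% and 2.92%). They were the same 8 genes, Birc5, Ccnb2, Ube2c (an anaphase ubiquitin-conjugating enzyme), Stmn1 (a microtubule destabilizer), Pclaf (a Pcna-binding factor), Hmgb2, Mki67 and Cenpa (the centromere histone). Birc5 had 27.4 and 34.9 CPM at 30 °C against 15.3 and 16.2 at 4 °C, the largest fall of these at 0.98 ± 0.14 on the log2 scale, and Cenpa the smallest at 0.36. No histone gene passed here, at a median difference of -0.72 over the 3. Leaving out either thermoneutral library took all 8 calls away.

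The histone genes were then set against 21 other genes of the same cells, here called the other S phase genes. They are the licensing and helicase, nucleotide supply, fork and G1/S genes of the list, so genes that act on entry to S phase are among them. In cycling αβ T cells the 3 histone genes gave 136 and 127 UMIs per 100 UMIs of the 21 other S phase genes at 30 °C and 70.7 and 81.9 at 4 °C. In cycling ILC2 the ratio was 115 and 115 against 62.8 and 62.2, in GC B cells 107 and 131 against 81.9 and 79.3, and in other B cells 86.0 and 112 against 59.0 and 85.4. Macrophages had 122.5 and 104 at 30 °C and only 18.7 and 33.8 at 4 °C, from 62 and 17 cycling cells in the cold libraries. In each of these 5 types both cold libraries were below both thermoneutral ones, with and without the limit, though in other B cells by as little as 86.0 against 85.4.

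In γδ T cells the ratio was 122 and 142 at 30 °C against 122 and 53.7 at 4 °C with the limit, overlapping, and 88.9 and 110 against 37.1 and 56.0 without it. In plasma cells it was 180 and 104 against 108 and 145, which also overlapped. These ratios are within cells with a Top2a UMI, so the share of such cells does not enter them directly. The makeup of these cells can still differ. In αβ T cells with a Top2a UMI, Mki67 was found in 59.9% and 58.3% at 30 °C and in 54.9% and 48.0% at 4 °C. The part of this makeup, and of any γδ cells inside the αβ gate, was not tested. A 2 against 2 comparison cannot go below an exact permutation p of 0.333.

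**Figure D4:**
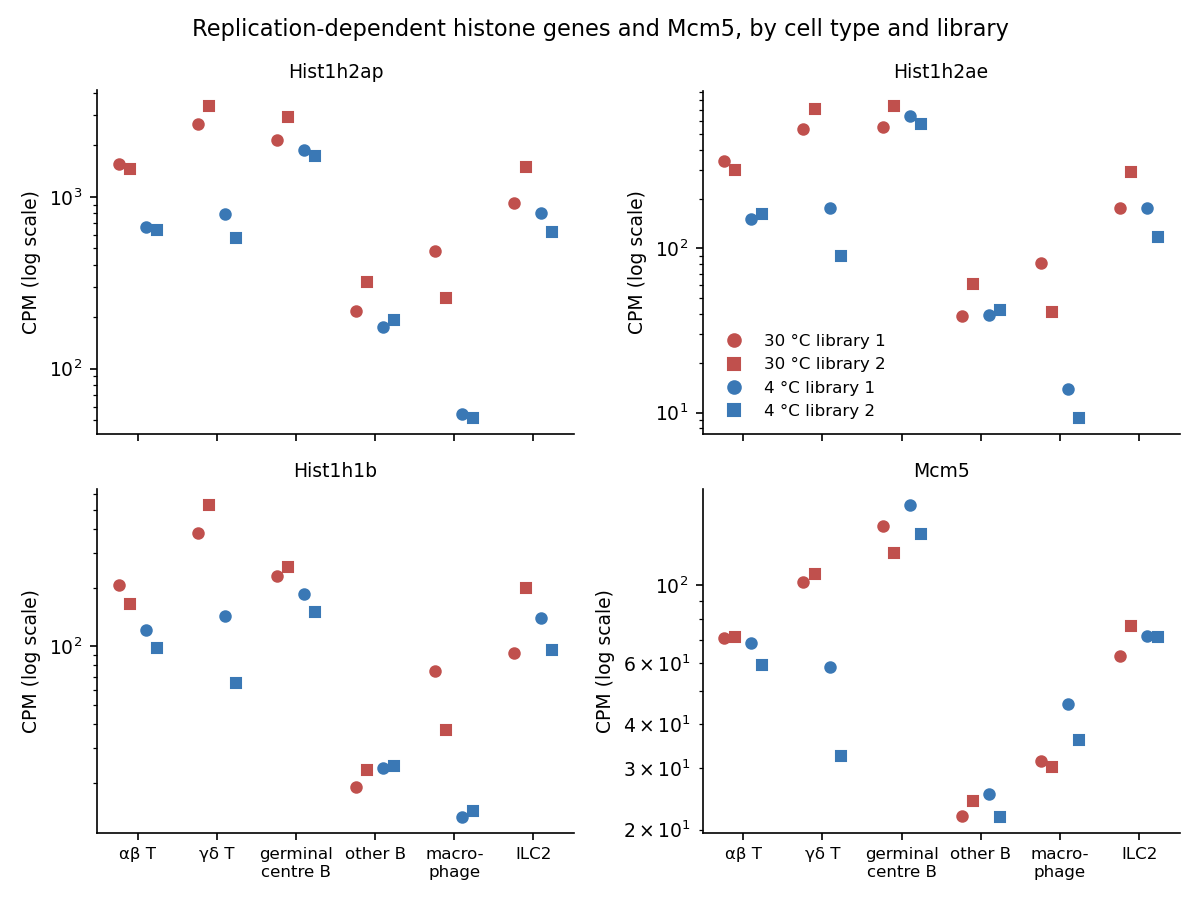
Levels of Hist1h2ap, Hist1h2ae, Hist1h1b and, for comparison, the helicase gene Mcm5 in CPM (log axis) by cell type, with a point for each library. The cold points lie under the thermoneutral points for all 3 histone genes in αβ T cells, γδ T cells and macrophages, for example 665 and 642 against 1545 and 1445 CPM of Hist1h2ap in αβ T cells.

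**Figure D5:**
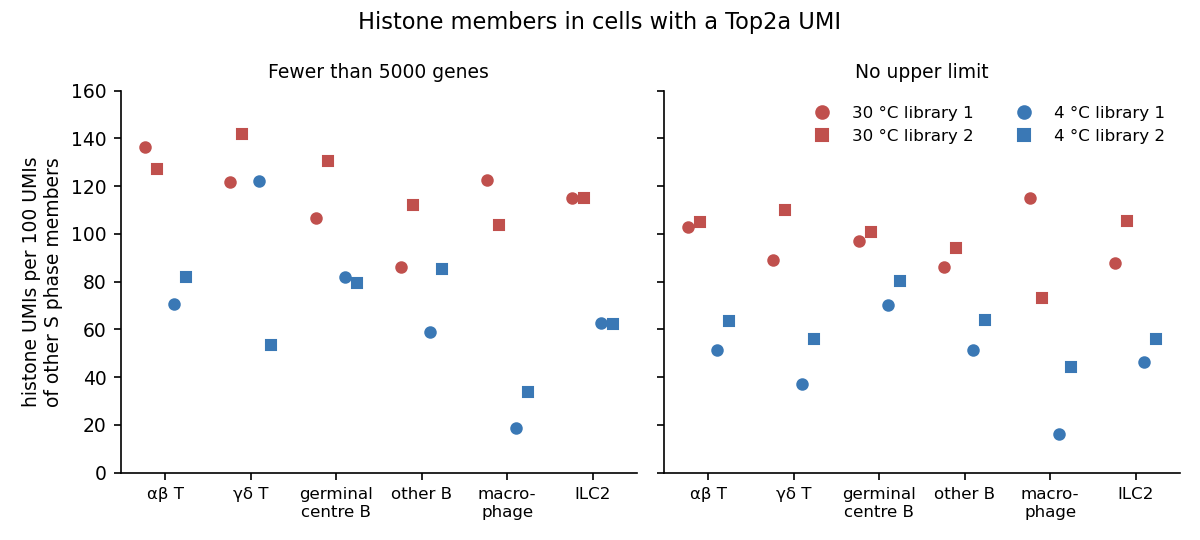
UMIs of the 3 histone genes per 100 UMIs of the 21 other S phase genes of the list in cells with a Top2a UMI, by cell type and library, with and without the limit of 5000 genes per cell. In αβ T cells the ratio goes from 136 and 127 at 30 °C to 70.7 and 81.9 at 4 °C, and in macrophages from 122.5 and 104 to 18.7 and 33.8.

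Histone genes come in near-identical copies, and how reads shared between copies were counted is not stated. Replication-dependent histone mRNAs mostly lack a poly(A) tail, so their capture by a 3′ poly(A) method is partial. A wider look at the other replication-dependent histone genes, chosen after the values of the 3 were seen, gave 26 of 55 lower and 0 higher in αβ T cells, with all 55 below zero and a median of -0.77. Lower calls made 2.72% of all genes tested there. In cycling αβ T cells 17 of 55 were lower (1.13% of all genes), in γδ T cells 11 of 33 (3.13%) and in macrophages 6 of 12 (8.91%). Without the limit the counts were 22 of 57 in αβ, 21 of 56 in cycling αβ, 5 of 45 in γδ T cells and 7 of 15 in macrophages, against 2.23%, 1.69%, 1.13% and 7.54% lower over all genes. In GC B cells, other B cells and ILC2 none passed with the limit (edgeR, of 51, 51 and 29 tested), with medians of -0.29, -0.15 and -0.49, and without it 2 of 38 were lower in ILC2.

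In macrophages, of which the first cold library held 484 cells and the others 182 to 201, the histone genes fell as well. Hist1h2ap had 483 and 257 CPM at 30 °C and 54.2 and 51.2 at 4 °C, Hist1h2ae 81.4 and 40.7 against 14.0 and 9.20, and Hist1h1b 74.8 and 37.2 against 13.3 and 14.4. The cold libraries were lower in all 3, and in all 3 the thermoneutral libraries differed from each other by more than the cold ones did. They fell by 2.80 ± 0.23, 2.29 ± 0.30 and 2.03 ± 0.29 on the log2 scale (edgeR adjusted p = 3.27e-06, 0.000157 and 0.000274) and by 2.41, 1.85 and 1.70 without the limit.

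E2f1, the factor that switches on S phase genes, went the other way in macrophages. It had 18.2 and 15.1 CPM at 30 °C and 32.3 and 35.1 at 4 °C, without overlap, and rose by 1.00 ± 0.20 on the log2 scale (edgeR adjusted p = 0.00374), or by 0.89 without the limit (edgeR adjusted p = 0.0103). Of 46 genes tested with the limit, 1 was higher and 10 lower in macrophages, where 18.1% of all genes changed, 9.23% higher and 8.91% lower. Without the limit 1 of 50 was higher and 12 lower, against 15.7% changed, 8.21% higher and 7.54% lower. DESeq2 called 3 lower and none higher, so the rise of E2f1 was not called by it. Without the first thermoneutral library 3 were lower, and without the second 19.

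The other 7 lower genes in macrophages were Cdk1 (the mitotic kinase), Stmn1, Top2a, Pclaf, Nusap1, Aurkb and Hmgb2. Cdk1 had 46.0 and 25.1 CPM at 30 °C and 16.9 and 14.4 at 4 °C and fell by 1.14 on the log2 scale (edgeR adjusted p = 0.00922). Top2a had 138 and 66.9 against 64.6 and 27.0 and fell by 1.02, with the cold values below the thermoneutral ones but by as little as 66.9 against 64.6. Mki67 did not pass at -0.73 (edgeR adjusted p = 0.071), nor did Pcna, Mcm5, Ccnb1 and Cdc20, at differences from -0.14 to 0.45. Ccne2, Cdc45, Ccne1 and Bub1 were too low to be tested with the limit. Top2a UMIs were found in 15.1% and 16.4% of the thermoneutral macrophages and 12.8% and 9.34% of the cold ones, and the groups did not overlap (exact permutation p = 0.333). They averaged 17.3% and 13.0% without the limit, also without overlap. With Scrublet cells removed they were 13.1 ± 2.43% and 9.92 ± 2.24% and overlapped (exact permutation p = 0.667), and they also overlapped with 2 Top2a UMIs (7.85% and 4.20%) or 3 UMIs of Rrm2, Tyms, Pclaf and Tk1 (7.37% and 3.37%). The study reports more proliferating macrophages in cold, counted by cell cycle scores in its own macrophage cluster. In the gate here, 28 and 33 cells held a Top2a UMI at 30 °C and 62 and 17 at 4 °C, with the limit. The 2 measures are unlike, and why they differ was not tested. The study also reports a macrophage cluster, predicted to be tissue resident, that held only thermoneutral cells. The gate was not divided into macrophage subsets here, so a change in its makeup and a change within its cells cannot be told apart. This holds for the histone genes as well.

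Transcripts of other cell types also moved in the macrophage gate. Its γδ receptor genes were at 64.2 and 16.6 CPM at 30 °C and 10.6 and 4.02 at 4 °C, and its T cell marker sum was 66.7 and 30.7 against 28.2 and 32.2. Its germinal centre markers were at 10.1 and 22.1 CPM at 30 °C and 51.1 and 45.4 at 4 °C, against 1224 to 1458 CPM in GC B cells. The part of these transcripts in the macrophage results was not tested. Tested against the αβ T cells of the same libraries, 7 of the 50 genes fell more and 2 fell less or rose in macrophages with the limit, where 7.72% of all genes tested had such a difference, 4.02% higher and 3.7% lower. Without the limit 13 fell more and none less, against 7.18%, 3.67% higher and 3.52% lower. Hist1h2ap fell by a further 1.53 with the limit and 1.49 without it (edgeR adjusted p = 1.82e-06 and 0.000108).

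In other B cells several G2/M genes rose by small amounts, and more of them did without the limit. Top2a had 45.8 and 52.0 CPM at 30 °C and 64.6 and 61.0 at 4 °C, with both cold libraries above both thermoneutral ones, and rose by 0.36 ± 0.07 on the log2 scale (edgeR adjusted p = 0.00821), or 0.46 without the limit. Mki67 rose by 0.38, from 28.3 and 35.0 CPM to 42.9 and 39.4, and Cenpf, Ccna2 (cyclin A2), Tpx2 (a spindle assembly factor) and Kif11 (a spindle motor) by 0.48 to 0.58. With the limit 6 genes were higher and 2 lower (Hist1h2ap and Mcm7), against 13.2% of all genes changed, 6.21% higher and 6.96% lower. Without it 29 were higher and 0 lower, against 15.9% changed, 7.43% higher and 8.47% lower. DESeq2 called 3 higher, and without the first thermoneutral library edgeR called 0 higher and 2 lower (8 at an unadjusted p under 0.05), without the second cold library 22 higher.

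The 29 genes that rose without the limit included 10 of 12 mitotic kinase and cyclin genes, 8 of 11 spindle genes and 3 of 3 chromatin genes, but 2 of 9 licensing genes. Cdc6 rose by 0.86, Ccne2 by 0.71, Aurka by 0.71, Ccnb1 by 0.69, Cdk1 by 0.41, Cdc20 by 0.41 and Mcm5 by 0.32 on the log2 scale, and E2f1 and Pcna did not pass at 0.23 and 0.20. With the limit none of these 9 passed. Hist1h2ap had 217 and 320 CPM at 30 °C against 173 and 192 at 4 °C and fell by 0.55 with the limit, but differed by -0.32 without it (edgeR adjusted p = 0.0268 and 0.209), and Hist1h1b did not pass at 0.19. The share of other B cells with a Top2a UMI was 10.7 ± 1.59% and 11.1 ± 0.629% (exact permutation p = 1) and, without the limit, 12 ± 1.46% and 13.0 ± 0.0991% (exact permutation p = 0.667), and the groups overlapped in both. With Mki67 in place of Top2a it was 8.09 ± 0.332% and 8.74 ± 0.0368%, without overlap. Among other B cells in which no UMI of Ighd, the gene of surface IgD, was captured, the Top2a share was 12.4 ± 0.420% at 30 °C and 17.8 ± 1.43% at 4 °C. The groups did not overlap (exact permutation p = 0.333), and without the limit the shares were 13.9 ± 0.349% and 21.9 ± 1.37%. A count of 0 UMIs does not show that a cell lacked the transcript.

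In GC B cells, where B cells divide during affinity maturation, few genes passed. Top2a UMIs were found in 58.3 ± 1.89% of the thermoneutral and 58.3 ± 5.45% of the cold GC B cells (exact permutation p = 1). With the limit, Mcm2 rose and Cenpa, Hist1h1b and Hist1h2ap fell, 1 higher and 3 lower of 50, against 1.81% of genes changed, 0.568% higher and 1.24% lower. Mcm2 had 69.1 and 56.6 CPM at 30 °C and 91.7 and 90.2 at 4 °C (0.58 ± 0.14, edgeR adjusted p = 0.0364), and Cenpa had 236 and 330 against 202 and 180. Without the limit Cenpa alone passed, with a fall of 0.47 on the log2 scale (edgeR adjusted p = 0.0195), against 1.22% changed, 0.285% higher and 0.935% lower. DESeq2 called none (9 at an unadjusted p under 0.05), and without either cold library edgeR called none (11 and 8), so these calls rest on both cold libraries. Hist1h2ap had 2133 and 2898 against 1873 and 1720 CPM with the limit. Top2a, Mki67, Pcna, Mcm5, Ccne2, E2f1, Ccnb1, Cdc20 and Cdk1 did not pass, at differences from -0.45 to 0.65.

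The cycling GC B cells alone gave 1 higher and 2 lower of 49 genes, against 0.93% changed, 0.31% higher and 0.62% lower. Rrm2, the regulated subunit of ribonucleotide reductase, rose by 0.53 on the log2 scale (edgeR adjusted p = 0.0471), from 171 and 194 CPM to 268 and 266, and Hist1h2ap and Hist1h1b fell by 0.46 and 0.52. Without the limit 0 were higher and 3 lower, against 1.44% changed, 0.405% higher and 1.03% lower. Without the first cold library none passed (edgeR, 11 at an unadjusted p under 0.05). Against the αβ T cells, 5 of the 50 genes had a higher temperature effect in GC B cells and none a lower one, where 0.756% of all genes tested differed, 0.403% higher and 0.353% lower. Hist1h2ae differed by 0.94 with the limit and 0.71 without it, and Hist1h2ap by 0.71 and 0.54, whereas Hist1h1b did not pass, at 0.19 and 0.25. Without the limit those 2 were the calls left, against 0.276% differing, 0.17% higher and 0.105% lower.

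ILC2 are innate lymphocytes without a rearranged antigen receptor, and their gate held αβ receptor constant transcripts at 977 to 1328 CPM. Hist1h2ap was lower here too. Hist1h2ap had 917 and 1482 CPM at 30 °C and 801 and 622 at 4 °C, with the cold libraries below, and fell by 0.75 ± 0.17 on the log2 scale (edgeR adjusted p = 0.0197). DESeq2 called none of the 50 (0 at an unadjusted p under 0.05), and edgeR none without the second cold library (6). It was the 1 gene of 50 called by edgeR with the limit, where 4.91% of genes changed, 2.08% higher and 2.83% lower. Without the limit, 3 were lower (Cenpf, Hist1h2ap and Hist1h2ae) and 5 higher, against 7.89% changed, 3.44% higher and 4.45% lower. The 5 were Cdc6 at 0.76, Rrm2 at 0.55, Dut (the dUTP pyrophosphatase) at 0.53, Pcna at 0.41 and Pclaf at 0.31. Of the ILC2, 28.9% and 29.3% held a Top2a UMI in the thermoneutral libraries against 33.3% and 32.6% in the cold ones, without overlap (exact permutation p = 0.333). Without the limit the means were 31.3% and 36.6%, also without overlap. The groups overlapped when a cycling cell was called by Mki67, by 2 Top2a UMIs or by 3 UMIs of Rrm2, Tyms, Pclaf and Tk1 (15.6 ± 4.63% and 16.6 ± 0.751%, exact permutation p = 1). After thinning to 4378 UMIs the difference went from 3.84 to 1.59 points. Top2a, Mki67, Pcna, Mcm5, Ccne2, E2f1, Hist1h1b, Ccnb1, Cdc20 and Cdk1 had differences from -0.30 to 0.30 with the limit, and none passed.

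In T cells of both kinds together, 34 of the 50 genes were lower with the limit, where 12.4% of all genes changed, 5.39% higher and 7.02% lower, and 6 without it, against 7.83% changed, 3.52% higher and 4.31% lower. The count with the limit was 18 without the first thermoneutral library. Hist1h2ap fell by 1.40, Hist1h2ae by 1.24 and Hist1h1b by 1.06 on the log2 scale with the limit. Top2a fell by 0.32 and Mki67 by 0.52, whereas neither passed without the limit (-0.12 and -0.26). Over all cells of a library, 0 of the 50 genes passed with edgeR (11 at an unadjusted p under 0.05, and 6 lower with DESeq2), where 0.438% of all 15076 genes tested changed, 0.146% higher and 0.292% lower. Hist1h2ap had 773 and 1072 CPM at 30 °C and 450 and 468 at 4 °C over all cells, at a difference of -1.01 (edgeR adjusted p = 0.0961). Without the limit 0 of the 50 passed as well (edgeR, 1 at an unadjusted p under 0.05), against 0.0384% of all genes, 0.0128% higher and 0.0256% lower. DESeq2 was run on the cells under the limit only.

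Other cell cycle genes were read as 3 lists, 20 further S and G2/M genes, 12 genes of cell cycle entry and 14 inhibitors and exit genes. The S and G2/M list was called lower for 2 of 20 genes in αβ T cells, 16 of 19 in γδ T cells, 0 of 20 in GC B cells, 1 of 20 in other B cells (with 4 higher), 7 of 17 in macrophages and 0 of 19 in ILC2. Over all genes the lower calls made 2.72%, 3.13%, 1.24%, 6.96%, 8.91% and 2.83% in the same order of types. The higher calls made 2.2%, 1.67%, 0.568%, 6.21%, 9.23% and 2.08% of all genes in that order. Without the limit the γδ count was 2 of 20, against 1.13% lower, and the other B count 11 higher of 20, against 7.43%. In the inhibitor list, 1 of 14 genes was lower in αβ T cells, and 3 of 13 were lower and 1 higher in γδ T cells. In macrophages 2 of 14 were lower, and 0 were called in GC B cells, other B cells and ILC2 (edgeR). Without the limit 3 of 13 were lower in ILC2, against 4.45% of all genes. In the entry list, 1 gene was higher and 2 were lower of 11 in αβ T cells, 2 and 3 of 10 in γδ T cells, 1 and 0 of 11 in GC B cells, 1 and 1 of 12 in other B cells, 2 and 1 of 10 in macrophages and 1 and 0 of 10 in ILC2.

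The D cyclins, which drive entry from G1, changed by cell type. Ccnd3 in other B cells had 150 and 141 CPM at 30 °C and 48.1 and 50.9 at 4 °C and fell by 1.56 ± 0.06 on the log2 scale (edgeR adjusted p = 1.77e-07), or by 1.37 without the limit. It fell by 0.51 in αβ T cells and 0.49 in macrophages, and in GC B cells it went from 122 and 136 to 196 and 187 CPM, a rise of 0.55 (edgeR adjusted p = 0.019) that did not pass without the limit at 0.40. Ccnd2 rose in αβ T cells by 0.61, in γδ T cells by 1.71 and in ILC2 by 0.60 on the log2 scale, and all 3 passed without the limit, at 0.42, 0.89 and 0.51. Ccnd1 in macrophages had 55.6 and 69.4 CPM at 30 °C and 255 and 254 at 4 °C and rose by 2.02 ± 0.12 (edgeR adjusted p = 1.74e-07). In the same cells Cdkn1a (p21) fell by 1.33 and Cdkn1b (p27), both inhibitors of cyclin-dependent kinases, by 1.03 on the log2 scale, beside the lower histone genes and the higher E2f1. The 3 macrophage calls held without the limit, at 2.04, -1.22 and -0.96.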

How the data were processed

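Single-cell RNA of sorted ChAT-eGFP+ cells from mouse IWAT was measured in 4 libraries, 2 per temperature. The deposited matrices hold raw UMI counts per gene and cell, which the authors obtained from Cell Ranger (3.0.0 in the file headers, 3.1.0 in the submitters' processing notes, which also name STAR and Seurat 4.2.0) on mm10, without normalization. Library depth was 53423899 to 54933486 UMIs in the cells kept, and median depth 7520 to 8068 UMIs per cell. Replicates come from separate pools of mice, and nothing else in the labels says how they were separated, so p-values measure the spread between 2 such pools.

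Cells had at least 100 genes, and genes at least 10 cells. The study's limits were then applied, namely over 200 genes, under 5000 genes and under 7.5% mitochondrial UMIs in each cell. Types were gated by summed marker UMIs, at least 3 of a lineage and at least 80% of all lineage marker UMIs. GC B cells needed 5 germinal centre marker UMIs, other B cells had at most 2, plasma cells had at least 50 Jchain UMIs, and ILC2 had at least 3 ILC2 marker UMIs and at most 1 Trac UMI. γδ T cells needed at least 3 γδ constant gene UMIs that made over 50% of all receptor constant UMIs, and αβ T cells had at most 10%. Cells between gates were left out of the types. The limit of 5000 genes is the study's own filter on doublets. No doublet caller was used in the main results, since Scrublet (scanpy 1.11.5) marked only 8 to 151 cells per library at its own threshold, and the 5% with the highest scores per library were removed in an alternative.

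UMIs were summed per library and type and tested in edgeR 4.0.16 under R 4.3.3 (TMM, filterByExpr, quasi-likelihood, Benjamini-Hochberg adjustment over all genes tested, threshold 0.05), also for interactions with the library as a block. The code was tested on simulated data. Shares were compared by 2-sided exact permutation tests (scipy 1.17.1), whose smallest p is 0.333 with 2 against 2 libraries. Intervals are 95% Clopper-Pearson and cover counting error only. Thinning kept 4378 UMIs per cell by its expected value and left out shallower cells. Alternatives were RLE scaling, DESeq2 1.42.0, no low-count filter, the replicate number as a block, each library left out, other limits on genes and mitochondrial UMIs, Scrublet, 95% purity gates and other definitions of a cycling or γδ cell. The limit of 7000 genes, and no limit with Scrublet cells removed, were added after the data were seen.

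Genes named with values are those past the threshold in a comparison, at most 12 by absolute difference, and Top2a, Mki67, Pcna, Mcm5, Ccne2, E2f1, Hist1h1b, Ccnb1, Cdc20 and Cdk1 throughout. Genes at or under 3 UMIs in a group are given as counts. The 50 genes, their roles, the gates and the other lists were chosen with earlier results of these data known. Promoter windows are RefSeq's, and 7 of the 50 genes (Mcm4, Gins2, Ccne2, Ccna2, Aurkb, Tpx2 and Stmn1) had none.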

Additional observations from a re-analysis of the deposited data

Results flagged for a closer look

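The effect of temperature differed between γδ and αβ T cells for 38 of the 50 genes, by edgeR's test of the difference itself with the limit of 5000 genes per cell, and for 0 without it. The largest of these differences were -2.46 for Ccne1, which rests on 3 and 2 UMIs in the cold γδ libraries, -2.28 for Ccnb2 and -1.97 for Cenpe on the log2 scale. Without the limit they were -1.09, -0.72 and -0.51. Leaving out the first cold library lowered the count from 38 to 11, and leaving out the second thermoneutral library lowered it to 23.

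Between macrophages and αβ T cells the effect differed for 9 genes with the limit and for 13 without it. Hist1h2ap differed by -1.53, Hist1h1b by -1.27 and Hist1h2ae by -1.18, so the histone genes fell further in macrophages.

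Between GC B and αβ T cells it differed for 5 genes with the limit and for 2 without it. Hist1h2ae differed by 0.94, Hist1h2ap by 0.71 and Rrm2 by 0.61, and Rrm2 by 0.13 without the limit. No group had the 4 samples that a search for single outlying libraries needs.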

How the results depend on the processing

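The counts of the 50 genes called moved with several settings. Without the limit of 5000 genes per cell they were 3 in αβ T cells (8 with it), 4 in γδ T cells (42), 6 in both kinds together (34), 1 in GC B cells (4), 29 in other B cells (8) and 8 in ILC2 (1), where the balance turned to higher. The γδ against αβ count became 43 (25), the difference of temperature effects 0 for γδ (38) and 2 for GC B against αβ (5). With a limit of 7000 genes, chosen after seeing the data, αβ gave 3, γδ 2 and both kinds 20, and without a limit but with Scrublet cells removed, also chosen afterwards, αβ gave 3, γδ 5, both kinds 7 and other B cells 30. With 95% purity gates αβ gave 4, γδ 6, both kinds 9, GC B 0, non-cycling αβ 3, cycling GC B 0, γδ against αβ 40 and the differences of temperature effects 10 (γδ) and 2 (GC B). Removing Scrublet cells alone left 1 in GC B cells, in the other direction on balance, and a mitochondrial limit of 15% gave 15 in other B cells and 2 in ILC2. DESeq2 called 6 in all cells (0 with edgeR), 0 in GC B, 3 in other B, 3 in macrophages, 0 in ILC2 and 5 in non-cycling αβ T cells. Without a filter on low counts the counts were 2 in αβ, 14 in both kinds, 8 in GC B, 20 in other B, 7 in macrophages, 3 in ILC2, 14 in cycling αβ, 0 in non-cycling αβ, 6 in cycling GC B and 8 for GC B against αβ effects. RLE scaling changed no count by more than 1.5 times. The causes of these changes were not tested.

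Leaving out each library in turn gave 2 to 37 calls in αβ, 36 to 45 in γδ, 18 to 48 in both kinds, 0 to 14 in GC B, 2 to 23 in other B, 4 to 20 in macrophages, 0 to 7 in ILC2, 2 to 24 in cycling αβ, 0 to 13 in non-cycling αβ and 0 to 10 in cycling GC B cells. The ranges were 8 to 48 for γδ against αβ, 11 to 36 for its temperature effect, 5 to 13 for macrophages and 2 to 12 for GC B. In GC B cells without the second thermoneutral library 1 was higher, in other B cells without the first 2 were lower, and the macrophage effect without the first gave 5, mostly higher.

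The labels do not say whether libraries of the same replicate number belong together, and the main fits of temperature did not pair them. Over genes, deviations of same-numbered libraries from their group means correlated at -0.148 in γδ to 0.127 in αβ T cells. Such a correlation over genes cannot show whether the libraries were paired. With the replicate number as a block the counts were 26 in αβ, 18 in other B, 20 in macrophages, 2 in ILC2, 20 in cycling αβ and 0 in cycling GC B cells.

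The change in the Top2a share of αβ T cells, -1.04 points, was 0.693 without the limit, 0.223 with 7000 genes and 0.440 with Scrublet cells also removed. In GC B cells it was -0.00505, and 2.11, 1.68 and 2.49 in those settings, 0.789 with Scrublet alone, 2.61 with Mki67, 2.73 with 2 Top2a UMIs, 1.90 with 3 UMIs of Rrm2, Tyms, Pclaf and Tk1, 0.978 when thinned, and -3.86 to 3.85 over the libraries left out, above zero without the second thermoneutral or the second cold library (1.33 and 3.85). In other B cells it was 0.406, and -0.717 to 1.53 over the libraries left out, below zero without the second thermoneutral or the first cold library (-0.717 and -0.0384). The mix part of the T cell split, -0.835, was -2.69 without the limit, -2.31 with 7000 genes, -2.73 with Scrublet cells also removed, -0.289 with 95% gates and -0.223 with γδ cells called by Trdc without Trac. The αβ part, -0.973, was 0.638, 0.206 and 0.405 in the first 3 settings, -2.62 with Mki67, -2.43 with the 3 UMIs and -3.18 when thinned. The γδ part, -1.5, was -0.861 without the limit, -0.912 with Scrublet cells also removed and -0.543 with Trdc. For the single genes named, 1320 values were recomputed, of which 989 kept their direction and call, 329 lost the call and 2 turned sign, both Mcm7 in other B cells (0.0632 without the limit and 0.0452 with Scrublet cells also removed). With 2 libraries a group and 25 to 53 cold γδ T cells, small differences could not be resolved.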

Other observations

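In cycling αβ T cells, UMIs of the 24 S phase genes, the 3 histone genes among them, made 63.8% and 67.1% of the S and mitotic UMIs at 30 °C and 56.0% and 61.9% at 4 °C, and 63.0% and 64.3% against 57.2% and 60.9% without the limit on genes per cell. With the histone genes taken out, a choice made after seeing the data, the shares were 42.7% and 47.2% against 42.7% and 47.2%, and 45.7% and 46.8% against 46.8% and 48.8% without the limit. So the lower S phase share in cold αβ T cells was not seen in the 21 other S phase genes. In cycling other B cells the share without histone genes was 55.1% and 53.8% at 30 °C and 47.0% and 47.3% at 4 °C with the limit, but 52.4% and 52.1% against 49.8% and 52.1% without it. In cycling GC B cells it was 46.8% and 40.0% against 47.4% and 50.7%, and 43.1% and 45.1% against 47.7% and 49.0% without the limit, with both cold libraries above both thermoneutral ones.

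Foxp3-positive T cells held a Top2a UMI in 26.5 ± 0.481% at 30 °C and 23.1 ± 1.97% at 4 °C, without overlap (30.4 ± 1.79% and 28.8 ± 2.53% without the limit, overlapping), and the remaining αβ T cells outside the Foxp3, Cxcr5 and Eomes gates in 20.5 ± 3.03% and 21.4 ± 0.841% (SD, 2 libraries each). Cells with markers of several lineages, which were left out of the types, held one in 29.8 ± 3.16% and 26.7 ± 1.56%.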
